A study of Arabidopsis with 12 samples.

Results

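The genes described here are 43 nuclear genes for the antenna and other subunits of both photosystems, out of 32833 genes in the expression table. They were chosen by name, with earlier results of these data known, and no measured value entered the rule. The set holds 21 light-harvesting genes (5 LHCB1 genes, 4 of LHCB2 and LHCB3, 6 of LHCB4 to LHCB7 and 6 LHCA genes), 12 photosystem I subunit genes and 10 photosystem II subunit genes. All 43 were found, all 43 matched a RefSeq locus and all 43 passed the filter on low values, which kept 19693 genes.

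Whole Arabidopsis seedlings were measured by RNA-seq. Levels are in TPM, a relative level that is scaled to a common total in each library and already divided by transcript length. The wild type was Col-0. The mutant was bzip59, given in the labels by its insertion line number SALK_024459, a single line with no second allele or complemented line among these samples; the altered gene encodes the basic leucine zipper transcription factor bZIP59. Seedlings of both genotypes grew for 7 days in continuous white light and were then kept in it or given shade for 2 h, set as a red to far-red ratio (R/FR) of 0.65. Each of the 4 groups held 3 libraries, called here by group and replicate number. The labels do not say whether these came from separately grown seedlings, so p-values measure the spread between these samples, which may be technical.

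Light-harvesting proteins bind most of the chlorophyll of a leaf and pass excitation energy to the photosystems. LHCB1, LHCB2 and LHCB3 proteins form the trimers of the main antenna complex, LHCB4, LHCB5 and LHCB6 are the monomeric antenna proteins between trimers and photosystem II, and LHCA proteins form the belt on photosystem I. All are encoded in the nucleus, while the reaction centre proteins that carry the chlorophyll of charge separation are encoded in the plastid. Shade from other plants is poor in red and rich in far-red light, which is sensed by phytochrome and shifts the balance of excitation between the photosystems. No sequence of these genes, promoters or proteins was held in the sources used here, so none is printed.

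The genotype labels were checked on bZIP59 (AT2G31370) itself. Its level was 17.5, 22.6 and 21.6 TPM in white light and 26.3, 23.1 and 19.9 TPM in shade in Col-0. In bzip59 it was 3.85, 5.47 and 3.12 TPM in white light and 7.52, 6.15 and 8.32 TPM in shade. The mutant kept 20.2% of the wild-type mean in white light and 31.7% in shade, with no overlap between libraries. A few libraries stood apart. Col-0 shade 1 and bzip59 shade 2 each held the lowest level of their group for 39 of the 43 genes, against 21.9% and 30.3% of all tested genes. The same pair of libraries had a summed level of 797 and 754 TPM of 7 dehydration genes, against 242 to 399 TPM in the other libraries, and held COR15A at 115 and 156 TPM, against at most 10.4 TPM elsewhere. Libraries 1 and 3 of bzip59 shade differed from each other less than any other pair within a group: the standard deviation of their log2 difference over the 1476 genes of at least 100 TPM was 0.130, against 0.241 to 0.658 for the other pairs. All 6 green tissue markers were detected in every library (28822 to 40749 TPM in sum), all 10 root markers were detected in nearly all of them (1584 to 2993 TPM), and the 9 seed storage markers summed to at most 9.57 TPM in Col-0 and to between 2.39 and 190 TPM in bzip59, highest in bzip59 white light 1. The part of these markers in the results was not tested, and in whole seedlings fewer green cells and less RNA per cell cannot be told apart.

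The 43 genes were among the most abundant transcripts of the seedling. Together they made up between 9.83% and 14.2% of all TPM in a library, and 36 of them averaged at least 1000 TPM, a level that 64 other genes reached. The highest was LHCB1.3 (AT1G29930, named CAB1 by RefSeq), ranked 2 among all genes, with 16289.8, 13439 and 16646 TPM in white light and 12213, 20049.5 and 19563 in shade for Col-0, and 13425, 11669.8 and 12970.5 in white light and 18202, 12974 and 18182 in shade for bzip59. PSBR (AT1G79040), a small photosystem II subunit on the lumen side, ranked 3, with 13616, 10288 and 10744 TPM in white light and 8707, 10821 and 9309.5 in shade for Col-0, and 9646, 14979.5 and 11890.1 in white light and 11801, 8295 and 11833 in shade for bzip59. In neither gene did the libraries of shade and white light separate in either genotype. The highest of the other classes were PSAO (AT1G08380, mean 3762 TPM over the 12 libraries) among photosystem I subunits, LHCA4 (AT3G47470, 3137 TPM), LHCB5 (AT4G10340, 2701 TPM) and LHCB3 (AT5G54270, 2307 TPM). The lower end was held by antenna genes of special use. LHCB7 (AT1G76570) averaged 14.8 TPM and LHCB4.3 (AT2G40100) 41.0 TPM. LHCA6 (AT1G19150) and LHCA5 (AT1G45474), the antenna proteins that join photosystem I to the NADH dehydrogenase-like complex, averaged 154 and 235 TPM. The other 41 genes, LHCB7 and LHCB4.3 apart, stayed at 100 TPM or more in every library.

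**Figure D1:**
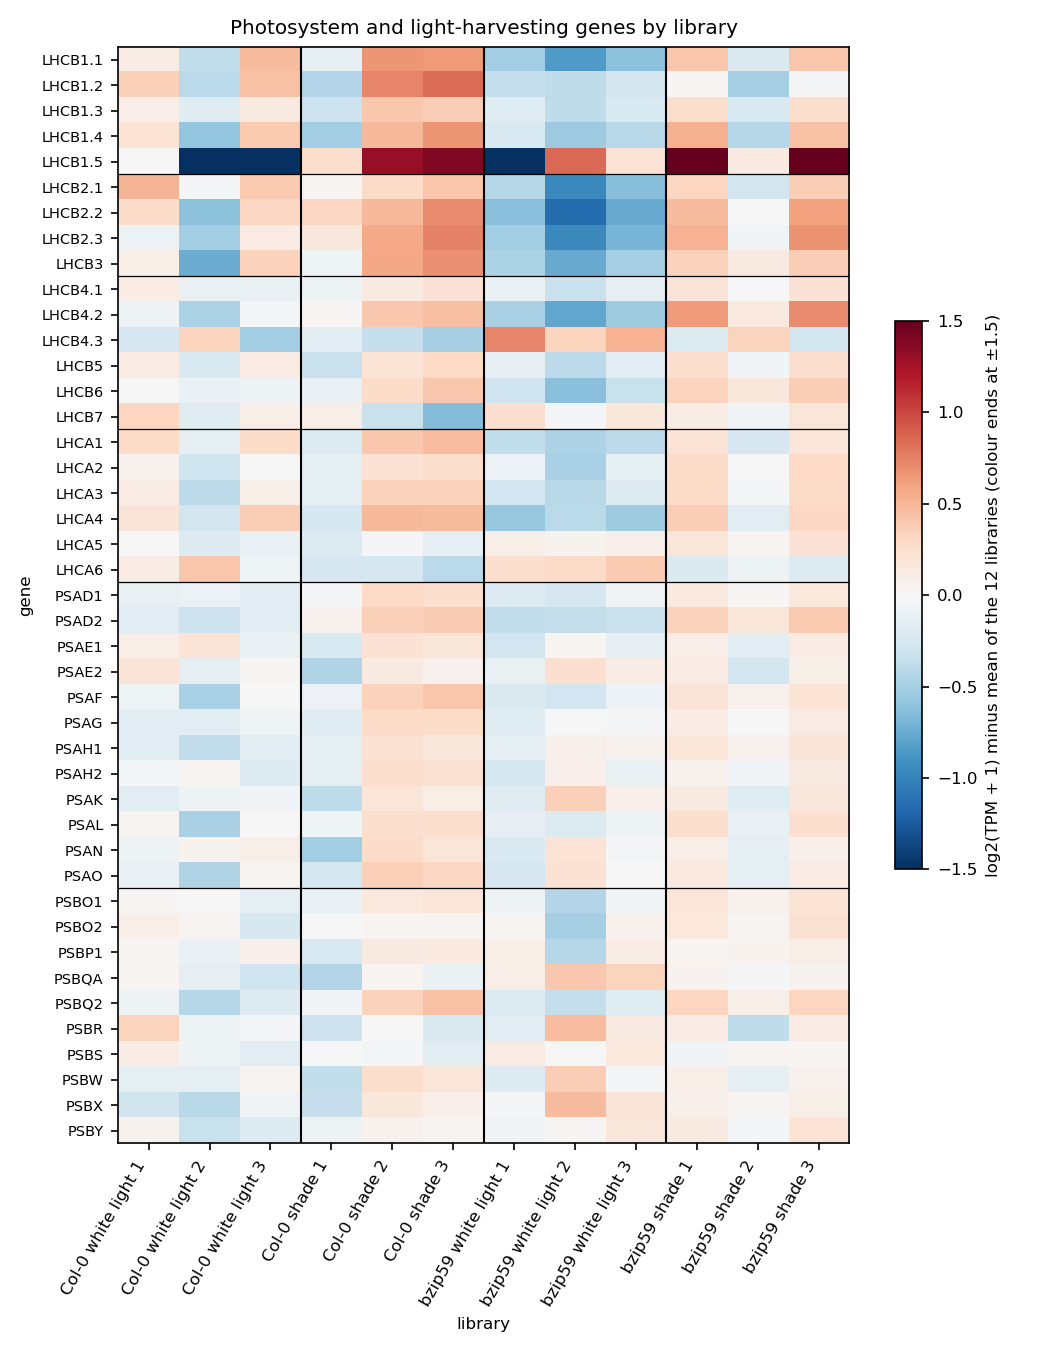
Level of each of the 43 genes (rows, grouped by class) in each of the 12 libraries (columns), as log2(TPM + 1) minus the gene's mean over the 12 libraries. Most rows are paler or bluer in Col-0 shade 1 and bzip59 shade 2 than in the other libraries of their group, and the LHCB2 rows are lowest in bzip59 white light.

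In Col-0, 2 of these genes passed the test after 2 h of shade. By limma at an adjusted p under 0.05, PSAD2 rose and LHCA6 fell. That is 4.65% of the 43 genes against 9.92% of all tested genes (3.42% rose and 6.5% fell). An unadjusted limma p under 0.05 was held by 9 of the 43 and by 4442 of the 19693 tested genes. The median log2 change of the 43 genes was 0.17, and that of all tested genes -0.01. The 64 other genes of at least 1000 TPM had a median of -0.10, with 1 risen and 5 fallen (9.38%). Libraries did not overlap for 7 genes that were higher in shade and 1 that was lower, against 12.1% and 15.8% of all tested genes. The count of 2 rested on single libraries: it was 6 without Col-0 shade 1, and 0 when library 2 or 3 of that group, or library 2 of its white-light group, was left out. Without both Col-0 shade 1 and bzip59 shade 2 it was 4, namely PSAD2 (adjusted p = 0.0093), LHCB2.3 (0.0392), LHCB4.2 (0.048) and PSBQ2 (0.0246), by limma.

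In bzip59 the same treatment changed 7 of the 43 genes, and 6 of those rose. The risen genes were LHCB2.1, LHCB2.2, LHCB2.3, LHCB4.2, LHCB6 and PSAD2, and LHCA6 fell again. That is 16.3% of the 43 genes against 10.2% of all tested genes (6.49% rose and 3.7% fell) and 12.5% of the 64 other abundant genes. The median log2 change of the 43 genes was 0.27, against 0.11 for all tested genes and -0.11 for the 64 other abundant genes. With TMM scaling (a trimmed mean of log ratios) the median of the 43 genes was 0.16 in bzip59 and 0.22 in Col-0. Which genotype had the higher median thus depended on the scaling. Libraries did not overlap for 18 genes higher in shade and 3 lower, against 21.5% and 10.5% of all tested genes. With libraries 1 and 3 of bzip59 shade averaged as 1 library, 2 of the 43 genes were called, LHCB4.2 (adjusted p = 0.0236) and PSAD2 (0.0266), and the count over all genes was 870 in place of 2007. Without Col-0 shade 1, which enters through the shared estimate of the spread, 11 were called, with LHCB1.1 (adjusted p = 0.0354), LHCA4 (0.0406), LHCB3 (0.0417) and PSBQ2 (0.0306) added. Seed storage markers moved with this comparison: of 9, 7 were tested, all 7 had lower values in shaded bzip59 (median log2 change -1.84, 6 with an unadjusted limma p under 0.05, 1 called), and all 7 had higher values in bzip59 than in Col-0 in white light (median 2.54, none called, 6 with an unadjusted p under 0.05). Their summed level was 190.1, 56.1 and 31.7 TPM in white light and 79.2, 10.1 and 2.39 TPM in shade in bzip59, where the libraries overlapped, and their part in the result was not tested. The shade responses of the genotypes were not shown to differ. The difference between them, the change in bzip59 less the change in Col-0 (the interaction), was tested directly, and limma called 0% of all tested genes and none of the 43; 3 of the 43 and 1577 of all tested genes had an unadjusted p under 0.05.

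**Figure D2:**
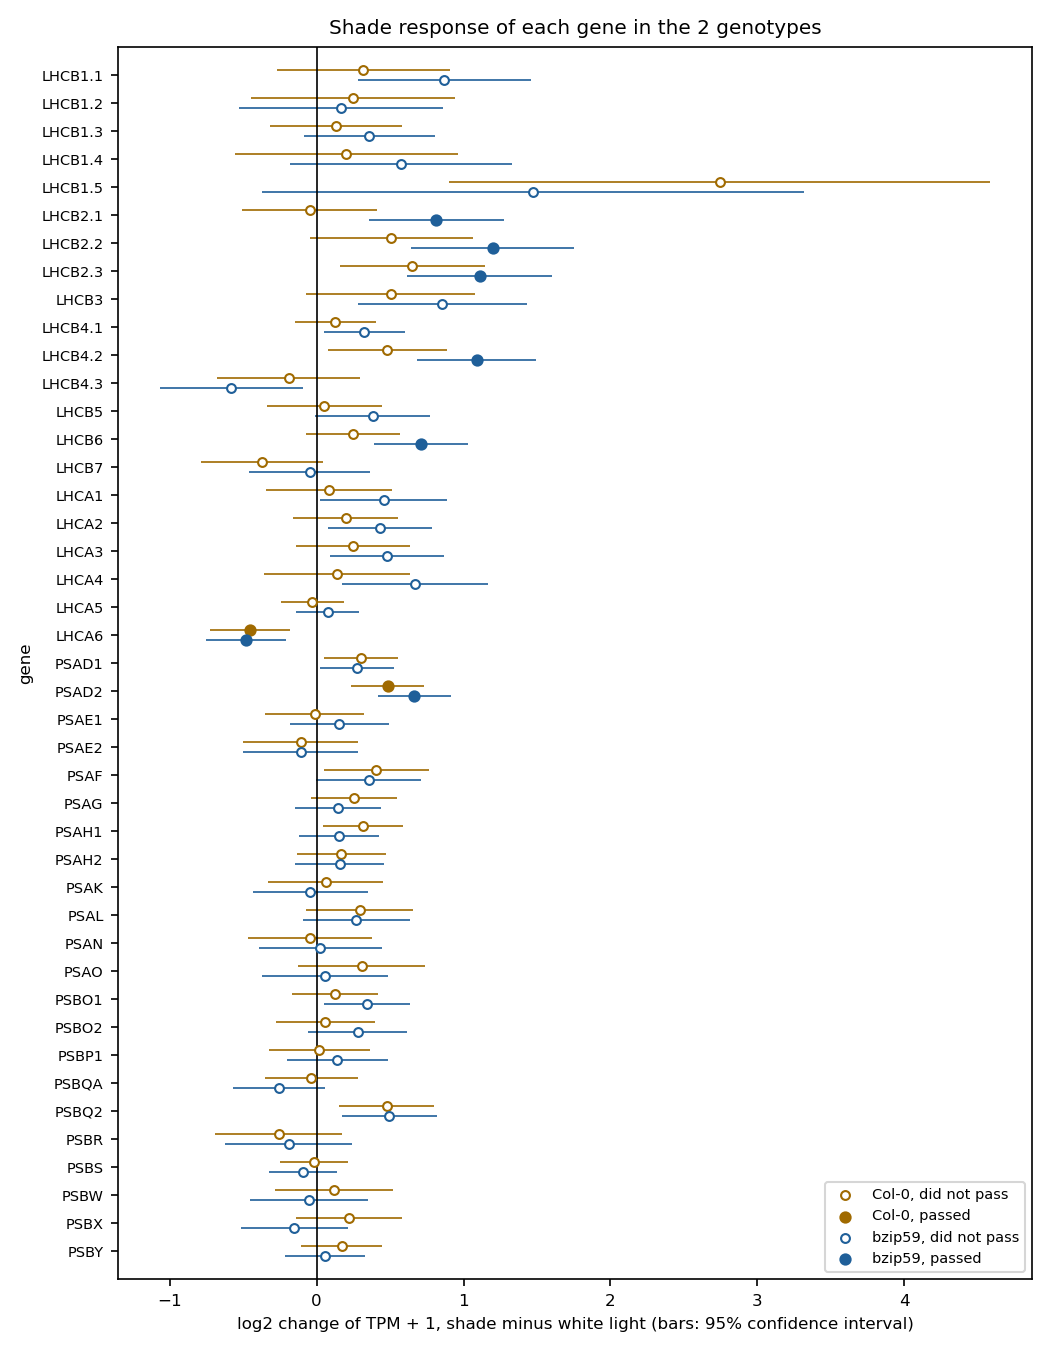
Log2 change of TPM + 1, shade minus white light, of each of the 43 genes in Col-0 and in bzip59, with 95% confidence intervals from limma. Filled points passed the adjusted threshold: PSAD2 and LHCA6 in both genotypes, and LHCB2.1, LHCB2.2, LHCB2.3, LHCB4.2 and LHCB6 in bzip59.

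The LHCB2 genes and LHCB3, of the trimeric antenna, had the highest class median in bzip59, a log2 change of 0.98, and of 0.51 in Col-0. LHCB2.2 (AT2G05070) stood at 1212, 656 and 1241 TPM in white light and 1239, 1399 and 1640.0 in shade for Col-0, and 651, 449.8 and 593 in white light and 1390.3, 996 and 1525 in shade for bzip59. All 3 shaded bzip59 libraries lay above all 3 in white light, while in Col-0 one white-light library lay well below the rest and the groups overlapped. The log2 change was 1.2 ± 0.25 (SE, n = 3 per group, limma adjusted p = 0.0121) in bzip59 and 0.51 ± 0.25 (adjusted p = 0.266) in Col-0. LHCB2.3 (AT3G27690) stood at 798, 594 and 921 TPM in white light and 952, 1255 and 1422 in shade for Col-0, and 591, 433 and 523 in white light and 1212, 823 and 1355 in shade for bzip59. Its shaded libraries lay above those in white light in both genotypes, with a log2 change of 1.11 ± 0.23 (adjusted p = 0.0102) in bzip59 and 0.65 ± 0.23 (adjusted p = 0.1) in Col-0.

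LHCB2.1 (AT2G05100) is the member of this family whose libraries gave the smallest interaction p of the 43 genes. It stood at 1192, 820.2 and 1094 TPM in white light and 855, 1016 and 1115 in shade for Col-0, and 621, 427 and 537 in white light and 1044, 688 and 1083 in shade for bzip59. The Col-0 groups overlapped almost fully, and the bzip59 libraries in white light were the lowest of all 12. The log2 change was 0.82 ± 0.21 (limma adjusted p = 0.0312) in bzip59 and -0.05 ± 0.21 (adjusted p = 0.933) in Col-0. The interaction was 0.86 ± 0.30 with an unadjusted limma p of 0.0138 and an adjusted p of 0.586, which did not pass. LHCB3, the highest gene of this class, stood at 2328, 1302 and 2779.6 TPM in white light and 2084, 3266 and 3524 in shade for Col-0, and 1571, 1296 and 1545 in white light and 2772, 2392 and 2819 in shade for bzip59. The groups overlapped in Col-0 and did not in bzip59, where it was just outside the threshold, with a log2 change of 0.86 ± 0.26 (adjusted p = 0.062). Without bzip59 shade 1 the adjusted p of LHCB2.2, LHCB2.3 and LHCB2.1 was 0.0575, 0.0526 and 0.127, and without bzip59 shade 3 it was 0.0653, 0.0573 and 0.136, so each of these calls was lost when either library of the alike pair was left out. LHCB2.1 was called in 17 of 26 alternatives and was also lost with TMM factors, with no filter, with only the 2 groups compared, without bzip59 white light 2 or 3 and without both white-light libraries numbered 2.

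The 5 LHCB1 genes encode the most abundant protein of the trimers. None of them passed the test in either genotype. In each, 1 of the 5 had an unadjusted limma p under 0.05, against 4442 (Col-0) and 5234 (bzip59) of the 19693 tested genes. LHCB1.5 (AT2G34420) varied widely between libraries of one group, with 2154, 253 and 469 TPM in white light and 2585, 5316 and 5626 in shade for Col-0, and 501, 3893 and 2487 in white light and 6745, 2369.6 and 6525 in shade for bzip59. In Col-0 every shaded library was above every library in white light, but the white-light libraries spread widely, and in bzip59 the groups overlapped. The log2 change in Col-0 was 2.74 ± 0.84 (adjusted p = 0.0642), the highest of the 43 genes and just outside the threshold; it passed in 3 of 26 alternatives, and without Col-0 white light 1 it was 3.63 (adjusted p = 0.0196). LHCB1.1 (AT1G29920, CAB2) was just outside the threshold in bzip59, with 2034, 1612 and 1901 TPM in white light and 3904, 2499.5 and 3898 TPM in shade (log2 change 0.87 ± 0.27, adjusted p = 0.0639); it passed in 5 of 26 alternatives, among them without Col-0 shade 1 (0.0354) and without both outlying shade libraries (0.0253). LHCB1.5 apart, the LHCB1 genes had log2 changes from 0.13 to 0.32 in Col-0, and LHCB1.2, LHCB1.3 and LHCB1.4 had changes from 0.17 to 0.58 in bzip59. LHCB1 genes are near-identical copies, so the split of reads among them, and each level, is uncertain.

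Among the minor antenna genes, LHCB4.2 (AT3G08940) and LHCB6 (AT1G15820) rose in bzip59. LHCB4.2 stood at 1176, 890.3 and 1215 TPM in white light and 1254, 1639 and 1686 in shade for Col-0, and 885, 723 and 857 in white light and 1929, 1366 and 2016 in shade for bzip59. Shaded libraries lay above white-light libraries in both genotypes. The log2 change was 1.09 ± 0.19 (limma adjusted p = 0.0035) in bzip59 and 0.48 ± 0.19 (adjusted p = 0.141) in Col-0, and the bzip59 call held in all 26 alternatives in which it was tested. LHCB6 stood at 1879, 1739 and 1768 TPM in white light and 1727, 2260.1 and 2478 in shade for Col-0, and 1518, 1212 and 1477 in white light and 2362, 2098 and 2408 in shade for bzip59. In bzip59 no shaded library reached down to the white-light range, while in Col-0 the library Col-0 shade 1 lay below all 3 in white light. The log2 change of LHCB6 was 0.71 ± 0.15 (adjusted p = 0.0103) in bzip59 and 0.25 ± 0.15 (adjusted p = 0.355) in Col-0; it was 0.0526 without bzip59 shade 1, 0.056 without bzip59 shade 3 and 0.0541 with the pair averaged, as adjusted p in bzip59. LHCB4.1, LHCB5 and LHCB7 did not pass in either genotype. LHCB5, the highest of the minor antenna genes, stood at 2915, 2279 and 2912 TPM in white light and 2116, 3084 and 3291 in shade for Col-0, and 2449, 2029.6 and 2385 in white light and 3185, 2592 and 3173 in shade for bzip59. It separated the lights in bzip59 and not in Col-0. LHCB4.3, a low copy of the LHCB4 family, pointed the other way without passing: its log2 change was -0.19 ± 0.22 in Col-0 and -0.58 ± 0.22 in bzip59 (adjusted p = 0.121), from 66.2, 50.0 and 57.1 TPM in white light to 33.9, 49.8 and 32.3 TPM in shade.

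Of the photosystem I antenna genes, LHCA6 was called in both genotypes, and it was the 1 fallen gene of the 43 in each. Its level was 164, 202 and 144 TPM in white light and 127, 127 and 114 in shade for Col-0, and 181, 185 and 199.5 in white light and 129.6, 143 and 131 in shade for bzip59. Every shaded library was below every white-light library of its genotype. The log2 change was -0.46 ± 0.12 (limma adjusted p = 0.0396) in Col-0 and -0.48 ± 0.12 (adjusted p = 0.0316) in bzip59, and the interval of the difference between genotypes was -0.03 ± 0.39 (95% confidence). The call was near the threshold: it was lost in 15 of 26 alternatives in Col-0 and in 7 of 26 in bzip59, with adjusted p up to 0.165 and 0.147, and the change was below 0 in all of them. LHCA1 to LHCA4, the belt itself, had log2 changes from 0.08 to 0.25 in Col-0 and from 0.43 to 0.67 in bzip59 and did not pass; in bzip59 their libraries did not overlap, and in Col-0 they did. LHCA4, the highest of them, stood at 3454, 2507 and 3911 TPM in white light and 2536, 4249.9 and 4204 in shade for Col-0, and 2042, 2292 and 2094 in white light and 3902, 2712 and 3742 in shade for bzip59 (adjusted p = 0.0855 in bzip59). LHCA5, the other linker, had log2 changes of -0.03 ± 0.10 and 0.07 ± 0.10, neither of which passed.

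PSAD2 (AT1G03130) was the risen gene that both genotypes shared. It encodes a copy of the subunit that, with PSAE, docks ferredoxin on the stromal side of photosystem I. Its level was 1087, 983 and 1084 TPM in white light and 1275, 1563 and 1589.8 in shade for Col-0, and 945, 950.2 and 967 in white light and 1557, 1384 and 1609 in shade for bzip59. The shaded libraries lay above the white-light libraries in both genotypes, and the white-light libraries of bzip59 lay within a narrow range. The log2 change was 0.48 ± 0.11 (limma adjusted p = 0.0195) in Col-0 and 0.67 ± 0.11 (adjusted p = 0.00376) in bzip59. In bzip59 it was called in all 26 alternatives, and in Col-0 in 20 of 26. Leaving out library 2 of the Col-0 white-light group gave an adjusted p of 0.0733, and leaving out library 2 or 3 of its shade group gave 0.0858 or 0.104, so 1 library decided that call. Its paralogue PSAD1 (AT4G02770) did not overlap between lights either, with 2210.1, 2251 and 2119 TPM in white light and 2364, 2937 and 2855 TPM in shade in Col-0; its log2 changes were 0.30 ± 0.11 (adjusted p = 0.132) and 0.27 ± 0.11 (adjusted p = 0.157). PSAF, which receives plastocyanin on the lumen side, had a log2 change of 0.41 ± 0.16 in Col-0 (adjusted p = 0.156), and PSAH1, of the site where the mobile antenna docks in state transitions, one of 0.32 ± 0.12 (adjusted p = 0.147). PSAO, the highest photosystem I gene and part of the same docking site, stood at 3462, 2715 and 3816 TPM in white light and 3089, 4773 and 4591 in shade for Col-0, and 3119, 4327 and 3701 in white light and 4103, 3387 and 4057 in shade for bzip59, with overlap in both genotypes. The 8 photosystem I genes other than PSAD1, PSAD2, PSAF and PSAH1 had log2 changes between -0.11 and 0.31 in Col-0 and between -0.11 and 0.27 in bzip59. Without Col-0 shade 1, PSAD1, PSAF, PSAG and PSAH1 also passed in Col-0, with log2 changes of 0.40, 0.56, 0.41 and 0.43 and adjusted p of 0.0466, 0.0413, 0.0408 and 0.0461; LHCA6 did not (adjusted p = 0.0606).

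None of the 10 photosystem II subunit genes passed in either genotype. An unadjusted limma p under 0.05 was held by 1 of them in Col-0 and 2 in bzip59. Of the 19693 tested genes, 4442 and 5234 held one. The nearest was PSBQ2 (AT4G05180), a copy of an extrinsic protein of the oxygen-evolving complex, at 1479, 1151 and 1353 TPM in white light and 1505, 1969.8 and 2102 in shade for Col-0, and 1346, 1207 and 1364 in white light and 1940.1, 1646 and 1939 in shade for bzip59. Shaded libraries lay above white-light libraries in both genotypes, and the log2 change was 0.48 ± 0.15 (adjusted p = 0.0662) in Col-0 and 0.49 ± 0.15 (adjusted p = 0.0567) in bzip59. Without Col-0 shade 1 it passed in both genotypes, with an adjusted p of 0.0164 in Col-0 and 0.0306 in bzip59. Its paralogue PSBQA (AT4G21280) stood at 2415, 2113 and 1912 TPM in white light and 1725, 2387 and 2196 in shade for Col-0, and 2526, 3118 and 2958 in white light and 2426, 2308 and 2436 in shade for bzip59, lower in all 3 shaded bzip59 libraries and overlapping in Col-0 (log2 change -0.26 ± 0.14 and -0.04 ± 0.14, neither passing). PSBS (AT1G44575), the sensor of lumen acidity in photoprotection, had log2 changes of -0.02 ± 0.11 and -0.09 ± 0.11, with 95% confidence limits of ± 0.23. PSBO1, PSBO2, PSBP1, PSBR, PSBW, PSBX and PSBY had log2 changes between -0.26 and 0.22 in Col-0 and between -0.19 and 0.34 in bzip59.

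Summed by class, LHCB2 and LHCB3 again had the highest ratio of shade to white light. Their 4 genes reached 5530.2, 3372 and 6036 TPM (Col-0 white light), 5130.0, 6937 and 7701 (Col-0 shade), 3434, 2605 and 3199 (bzip59 white light) and 6418, 4898 and 6782 (bzip59 shade). The groups overlapped in Col-0 and did not in bzip59. The means in shade were 1.32 times those in white light in Col-0 and 1.96 times in bzip59. For LHCB1 these ratios were 1.29 and 1.47, for LHCB4 to LHCB7 1.14 and 1.46, and for LHCA 1.12 and 1.41. Photosystem I subunits had ratios of 1.16 and 1.12, and photosystem II subunits of 0.994 and 0.970. In Col-0 shade, library 1 lay below the white-light mean of every class but LHCB2-3, and the summed level of all 43 genes was 94067, 134843 and 134205 TPM there, against 114183, 92175 and 110854 TPM in white light. The ratio of summed antenna TPM to summed photosystem subunit TPM was 0.891, 0.738 and 0.952 in Col-0 white light, 0.848, 1.01 and 1.08 in Col-0 shade, 0.729, 0.577 and 0.661 in bzip59 white light and 0.996, 0.812 and 0.984 in bzip59 shade. It was lowest in the mutant in white light, where no library reached the range of the mutant in shade, and it overlapped between lights in Col-0.

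**Figure D3:**
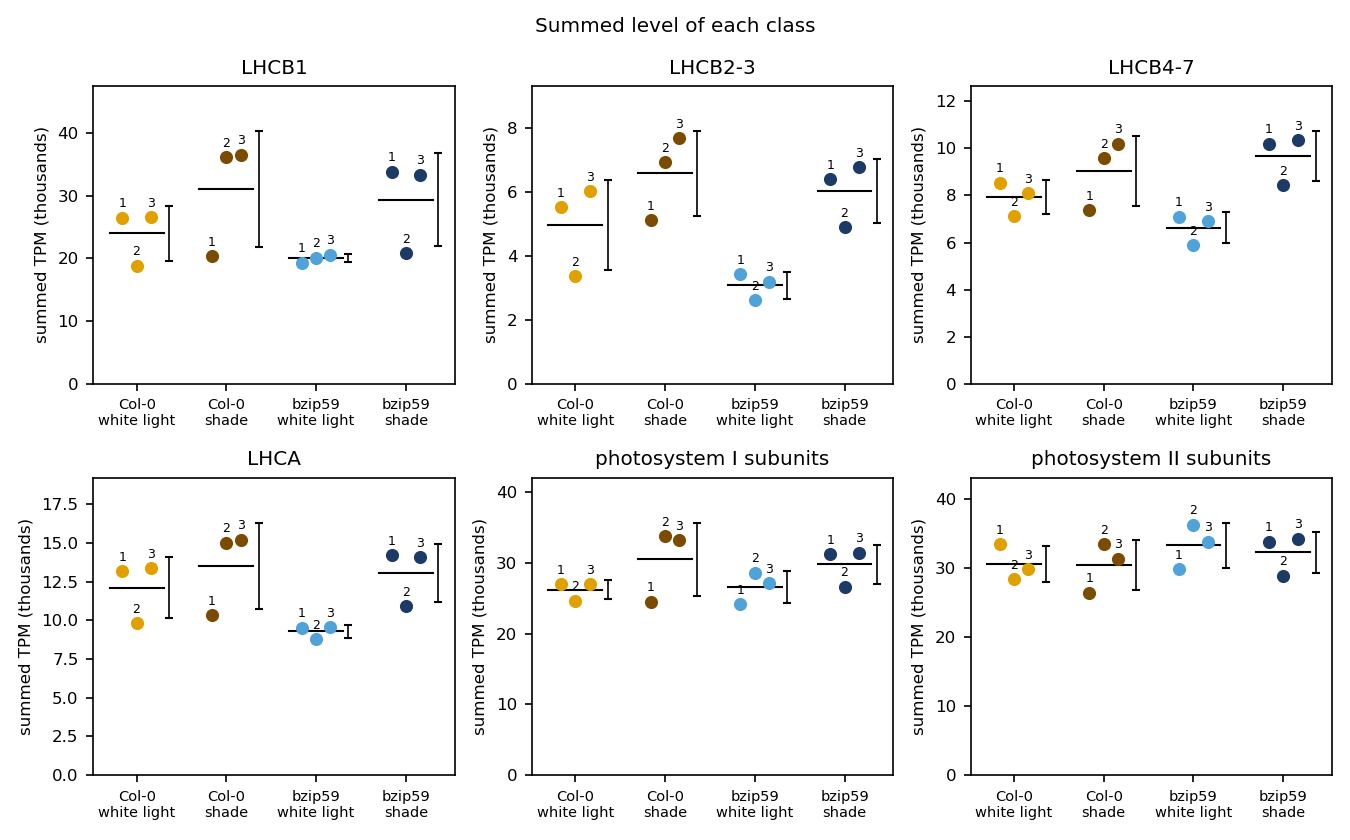
Summed TPM of each class in each library (points, numbered by replicate), with the mean (line) and the SD over the 3 libraries (bar to the right). The 4 antenna classes separate shade from white light in bzip59, LHCB1 narrowly, and overlap in Col-0, where library 1 is the lowest of the shade group in all 6 classes.

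The genotypes were compared within each light. In white light none of the 43 genes passed, against 0.0254% of all tested genes (0.0102% rose and 0.0152% fell). An unadjusted limma p under 0.05 was held by 10 of the 43 and by 3047 of the 19693 tested genes. The antenna genes tended to lower values in bzip59 without passing: 16 of the 21 had a log2 change below 0, with a median of -0.36, and 9 of the 21 were lower and 2 higher without overlap, against 15.6% and 2.76% of all tested genes. The median of all tested genes was itself -0.16 in this comparison; with TMM scaling (a trimmed mean of log ratios) it was -0.01 and the antenna median -0.19. The LHCB2 and LHCB3 genes had a median of -0.70, and LHCB2.1 the smallest p, with a log2 change of -0.97 ± 0.21 (limma adjusted p = 0.167). The medians of photosystem I and II subunits were 0.00 and 0.10, and 0.17 and 0.27 with TMM scaling, but -0.12 and -0.03 with the gene length trend removed, so their sign depended on the scaling. The median of all 43 genes was -0.05 and turned to 0.12 with TMM scaling, so no direction is given for the set. In shade none of the 43 passed either, against 0.0406% of all tested genes (0.0203% each way), and LHCA5 and LHCA6 did not overlap and were higher, against 4.57% of all tested genes higher and 5.19% lower. Of the 43 genes, 1, LHCA5, had an unadjusted limma p under 0.05 (log2 change 0.28 ± 0.10, adjusted p = 1). Such an unadjusted p was held by 533 of the 19693 tested genes in shade. The antenna median in shade was -0.01. These comparisons share groups with the shade comparisons: the white-light libraries of bzip59 enter both.

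Copies of a gene family can change by different amounts, and this was read from each copy's share of its family's TPM. A lower share need not be a lower level. LHCB2.1 lost share in shaded bzip59 while its level rose (log2 change 0.82). LHCB4.1 and PSAD1 lost share with log2 changes above 0 in both genotypes, and PSBQA with changes below 0 in both, none of them passing. Light labels were permuted within genotype over the 400 possible arrangements (exact two-sided test, smallest possible p 0.005), for 21 shares in 8 families with p-values adjusted over the 21; the 2 shares of a 2-gene family mirror each other. This permutation test was not in the plan of tests. PSBQ2 took 38.0, 35.3 and 41.4% of PSBQ in Col-0 white light and 46.6, 45.2 and 48.9% in Col-0 shade. In bzip59 it took 34.8, 27.9 and 31.6% in white light and 44.4, 41.6 and 44.3% in shade. Neither genotype's groups overlapped, and the share was 10.4 percentage points higher in shade on average (exact permutation p = 0.005, adjusted p = 0.0131).

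The share of LHCB4.2 in LHCB4 rose by 8.87 points, from 31.5, 28.8 and 35.7% to 35.7, 38.8 and 38.1% in Col-0 and from 28.3, 27.5 and 28.2% to 41.6, 36.6 and 42.4% in bzip59 (exact permutation p = 0.005, adjusted p = 0.0131). LHCB4.1, the main copy, differed by -8.19 points with the same p. Within LHCB2 the shares moved away from LHCB2.1, from 37.2, 39.6 and 33.6% to 28.1, 27.7 and 26.7% in Col-0 and from 33.3, 32.6 and 32.5% to 28.6, 27.4 and 27.3% in bzip59, a difference of -7.16 points (exact permutation p = 0.005). LHCB2.2 and LHCB2.3 took up 3.60 and 3.56 points on average over the genotypes (exact permutation p = 0.005 and 0.01). LHCB2.2 did not pass without Col-0 shade 1 and bzip59 shade 2 (adjusted p = 0.07), and its Col-0 groups nearly touched (38.11% in white light 3, 38.12% in shade 2). The mean share of LHCB2.3 went from 27.3 to 33.2% in Col-0 but only from 32.1 to 33.4% in bzip59, where the groups overlapped. PSAD2 took up 4.44 points of PSAD, from 33.0, 30.4 and 33.8% to 35.0, 34.7 and 35.8% in Col-0 and from 31.1, 32.2 and 29.5% to 37.0, 36.4 and 37.7% in bzip59 (exact permutation p = 0.005). For PSBQ2, PSAD2, LHCB4.2 and LHCB2.1, the shade libraries that stood apart in level, Col-0 shade 1 and bzip59 shade 2, did not reach the white-light range, though for LHCB4.2 the Col-0 groups nearly touched.

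The share of LHCB1.3 in LHCB1 changed by -7.77 points (exact permutation p = 0.02, adjusted p = 0.0382) and that of LHCB4.3 in LHCB4 by -0.683 points with the same p-values; these passed, but did not in 8 and in 7 of 15 alternatives. LHCB1.5 took 8.06 points more (exact permutation p = 0.04, adjusted p = 0.07) and did not pass. PSAE, PSAH, PSBO and the other LHCB1 shares did not pass, with PSAE1 at 2.69 points (adjusted p = 0.09 in the exact permutation test) and PSBO2 at -0.872 points (adjusted p = 0.297). Copies of one family can share reads, and the authors' rule for such reads is not given in the sources used here, so shares among near-identical copies are uncertain.

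**Figure D4:**
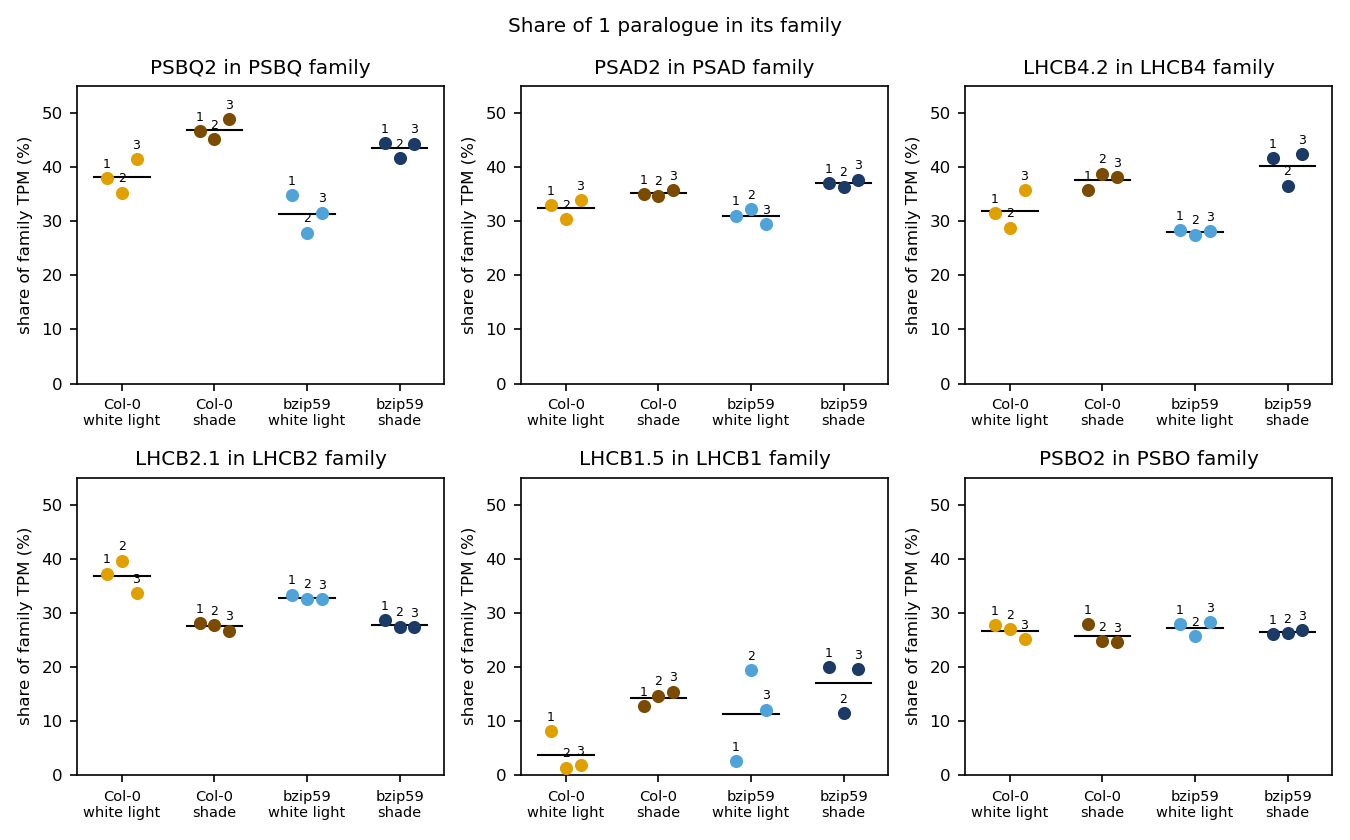
Share of a copy in the summed TPM of its family, in percent, in each library (points, numbered by replicate) with the mean of each group (line). PSBQ2, PSAD2 and LHCB4.2 lie higher and LHCB2.1 lower in shade in both genotypes with no overlap, LHCB1.5 spreads widely in white light, and PSBO2 stays between 24.6% and 28.2% throughout.

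The levels above are sums over transcripts, and for most genes this made no difference. Of the 43 genes, 30 had 1 annotated transcript and 13 had more, 60 transcripts in all, and in 2 of the 13 (PSAL and LHCA5) the leading transcript held under 90% of the gene's TPM. PSAL (AT4G12800), of the docking site of the mobile antenna, was listed under different transcripts in replicate libraries. In white light in Col-0, its first transcript stood at 3305, 1.03 and 142 TPM and its second at 4.82, 2289 and 3060.3 TPM. In the other groups the first transcript held at least 99.4% of the gene. The gene's sum did not show this, at 3310.2, 2290.3 and 3202 TPM in Col-0 white light.

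Regulators of photosynthesis genes were examined as a list of 15, since the photosystem and antenna genes are among their known targets. The list was chosen with earlier results of these data known, so its counts are a description and no test of the list. In Col-0, 10 of the 15 fell and PIF3 rose, with a median log2 change of -0.75; of all tested genes 6.5% fell and 3.42% rose. The fallen genes included the activators of antenna genes GLK1 and GLK2, the GATA factors GNC and CGA1, the leucine zipper factors HY5 and HYH and the clock genes CCA1 and LHY, besides PIF1 and PIF7. GLK1 stood at 103, 134 and 80.6 TPM in white light and 63.8, 34.8 and 34.7 in shade for Col-0, and 98.2, 103 and 107 in white light and 39.6, 58.4 and 47.6 in shade for bzip59, and its shaded libraries lay below those in white light in both genotypes (log2 change -1.26 ± 0.24, limma adjusted p = 0.00671, in Col-0 and -1.08 ± 0.24, adjusted p = 0.0172, in bzip59). GLK2 had log2 changes of -0.61 ± 0.13 in Col-0 (adjusted p = 0.0134) and -0.01 ± 0.13 in bzip59 (adjusted p = 0.976). PIF7, the phytochrome-interacting factor with a leading part in shade, changed by -2.07 ± 0.14 (adjusted p = 4.69e-06) and -1.17 ± 0.14 (adjusted p = 0.000311), HYH by -1.48 ± 0.14 (adjusted p = 8.61e-05) and -0.84 ± 0.14 (adjusted p = 0.0035), and CGA1 by -1.74 ± 0.17 (adjusted p = 0.000111) and -0.68 ± 0.17 (adjusted p = 0.0309).

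In bzip59, 5 of the 15 regulators fell, and PIF3 and PIF5 rose, with a median of -0.22; of all tested genes 3.7% fell and 6.49% rose. PIF5 had 13.4, 11.2 and 13.3 TPM in white light and 25.2, 19.0 and 26.1 TPM in shade in bzip59, while Col-0 had 28.3, 23.3 and 24.5 TPM in white light and 27.0, 24.1 and 21.6 TPM in shade. CCA1, a clock factor first found as a binder of an LHCB1 promoter, had 49.1, 49.5 and 56.2 TPM in white light and 33.9, 27.4 and 26.8 TPM in shade in Col-0, and 26.5, 18.3 and 30.4 TPM in white light and 44.2, 30.2 and 43.8 TPM in shade in bzip59. Its log2 change was -0.80 ± 0.19 in Col-0 (limma adjusted p = 0.0231) and 0.64 ± 0.19 in bzip59 (adjusted p = 0.0591), and its interaction had an unadjusted p of 0.000244 and an adjusted p of 0.536. The interaction was not called for any of the 15. An unadjusted limma p under 0.05 was held by 9 of the 15, against 1577 of the 19693 tested genes. All 15 had an interaction above 0, with a median of 0.45, against a median of 0.15 for all tested genes. The count of 10 fallen regulators in Col-0 was 4 without Col-0 shade 2 or without Col-0 shade 3, and no regulator had risen then, and it was 6 with only the 2 groups compared; the count of 5 in bzip59 was 2 without bzip59 white light 3, shade 1 or shade 3 and with the alike pair averaged.

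**Figure D5:**
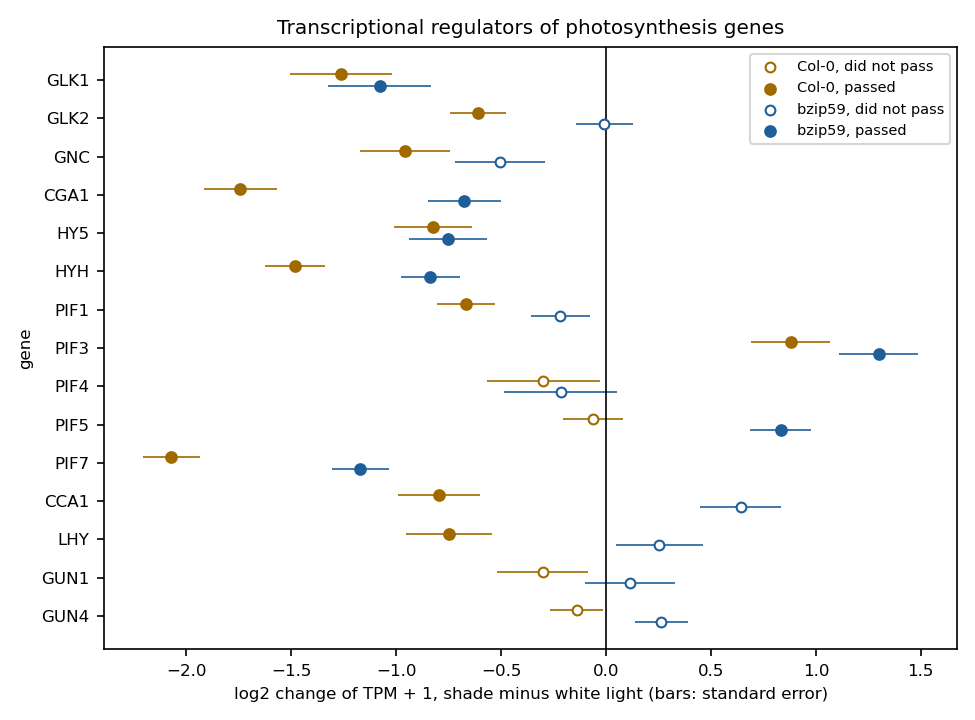
Log2 change of TPM + 1, shade minus white light, of 15 transcriptional regulators in Col-0 and bzip59, with standard errors from limma. In Col-0, 10 filled points lie below 0 and PIF3 above it; in bzip59, 5 lie below 0 and PIF3 and PIF5 above it.

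Other genes of the light reactions, carbon fixation and plastid transcription were counted by list. Of all tested genes, 9.92% were called in Col-0 and 10.2% in bzip59. An unadjusted limma p under 0.05 was held by 4442 and 5234 of the 19693. These lists too were chosen with earlier results of these data known. Of 9 genes for photosystem II assembly and accessory proteins, PPL2 fell in Col-0 (log2 change -0.45 ± 0.12, limma adjusted p = 0.0355) and PSB28 in bzip59 (-0.63 ± 0.14, adjusted p = 0.0166). Of 6 LHC-like genes, the early light-induced photoprotective proteins ELIP1 and ELIP2 fell in bzip59 (-1.70 ± 0.45 and -1.40 ± 0.37, adjusted p = 0.0336 and 0.0358), from 38.0, 29.8 and 32.9 TPM of ELIP1 in white light to 6.23, 23.4 and 5.68 TPM in shade; in Col-0 none of the 6 passed and none had an unadjusted p under 0.05. Of 9 electron carriers, plastocyanin gene PETE1 rose (0.39 ± 0.10, adjusted p = 0.0365) and ferredoxin gene FD1 fell (-0.57 ± 0.14, adjusted p = 0.0256) in bzip59, and none passed in Col-0, where 4 had an unadjusted p under 0.05.

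Of 11 carbon fixation genes, RBCS1B, a small subunit of Rubisco, fell in both genotypes, with 5416, 5524 and 3063 TPM in white light and 2769, 2389.8 and 1868 in shade for Col-0, and 5168, 7182 and 6461 in white light and 2862, 2628 and 3133 in shade for bzip59 (log2 change -0.96 ± 0.23 and -1.12 ± 0.23, limma adjusted p = 0.0209 and 0.0108). Its shaded libraries lay below the white-light libraries in both. Of the 6 plastid sigma factors, which direct the plastid RNA polymerase to photosystem genes of the plastid, SIG3, SIG4 and SIG5 fell in Col-0 (-0.93 ± 0.16, -0.59 ± 0.17 and -1.54 ± 0.19) and SIG4 in bzip59 (-0.64 ± 0.17). No gene passed in either genotype among 5 for import and insertion of antenna proteins, 3 nuclear ATP synthase subunits, 3 for state transitions and antenna phosphorylation and 6 plastid-encoded photosystem genes; by unadjusted limma p under 0.05 there were 0, 0, 3 and 1 in Col-0 and 3, 0, 1 and 1 in bzip59. In the genotype comparisons and the interaction no gene of these 10 lists passed. In white light all 6 plastid-encoded genes were lower in bzip59, all 6 with an unadjusted limma p under 0.05 (median log2 change -1.32). All 15 regulators were lower there too, 7 with such a p (median -0.32). Of the 11 carbon fixation genes, 9 were higher, and 2 of the 11 had such a p. Over all tested genes, 3047 of the 19693 had one, with a median of -0.16. The plastid-encoded genes summed to 18.2 to 150 TPM, in libraries selected on oligo(dT), which plastid transcripts largely escape.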

How the data were processed

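The authors deposited TPM per transcript for 12 libraries and 4 group means, per the file headers. Whole seedlings were sampled, RNA was selected on oligo(dT) beads and primed with random primers, per the labels' protocols. Strandedness and the tool that computed TPM are not given in the sources used here, so overlapping and antisense genes cannot be told apart. The submitters' processing notes name fastp, cutadapt, HISAT2, DESeq2 and TAIR10, with no versions and no roles. TPM keeps no read counts, so the depth is unknown and no counting interval is given; library totals ran from 937165 to 955765 TPM.

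TPM of 54013 transcripts was summed to 32833 genes, of which 32548 matched RefSeq (TAIR10.1), used for symbols and gene length. limma 3.58.1 in R 4.3.3 was fitted with an intensity trend to log2(TPM + 1) of the 19693 genes averaging 1 TPM or more, with 4 group means and 5 contrasts. The call threshold was 0.05 for p-values adjusted by Benjamini-Hochberg over all tested genes, and fold changes on this scale understate changes of low genes. Shares of paralogues were tested by exact permutation. The pipeline was tested on simulated data. TMM factors were computed from TPM with 30% of log ratios and 5% of mean levels trimmed, and summaries and figures were made with Python 3.11.15, pandas 2.3.3, numpy 2.4.6 and matplotlib 3.10.9.

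The 43 genes and the 14 lists (10 of photosynthesis and its regulators, 4 of markers) were chosen with earlier results of these data known. By rule, all 43 genes are named or counted. Library values are given for called genes and the highest gene of each class, and names for the 2 genes nearest the threshold on each side and for up to 4 called genes of each list by smallest p. Further library values and names were chosen after their values were seen.

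Alternatives were pseudocounts of 0.1 and 0.5, no filter, a filter at 5 TPM, TMM and quantile normalization, rescaling to the other genes' total, gene length detrending per library, no intensity trend, blocking on replicate number, fitting a contrast's 2 groups alone, calls of 2-fold or more, the leading transcript alone and leaving out libraries. Added after the data were seen were averaging the 2 alike shade libraries of bzip59, counts of regulators, and the alternatives for summed levels and shares. The permutation test of paralogue shares was itself not in the plan of tests.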

Additional observations from a re-analysis of the deposited data

How the results depend on the processing

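Of the 1619 recomputed values of 72 results, 1431 were labelled as the same, by rules that differed. Single genes and shares had to keep their direction and their side of the threshold. Counts had to be equal or within a set ratio. Medians and summed levels had to stay within the pooled SD between libraries (0.186 and 0.205 on the log2 scale). A median could thus change sign, and a count that stayed 0 was the same, so 1431 is no measure of robustness. In Col-0 the count of called photosystem and antenna genes, 2, was 0 with TMM factors, with fits of only the 2 groups compared, with calls of 2-fold or more and without both white-light libraries numbered 2. It was 1 without the gene length trend, without the intensity trend and with the alike pair averaged, 4 with quantile normalization and 4 without Col-0 shade 1 and bzip59 shade 2, and 0 to 6 when each library was left out in turn. In bzip59 the count of 7 was 3 with calls of 2-fold or more, 11 with quantile normalization, 2 with the pair averaged and 2 to 11 without each library. The cause was not tested, except that the 2-fold rule calls fewer genes by construction.

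Over all genes, the 1954 called for shade in Col-0 were 767 with calls of 2-fold or more and 1165 with only the 2 groups compared (976 to 2424 without each library), and the 2007 in bzip59 were 675, 1191 and, with the pair averaged, 870 (871 to 3305). The 5 genes called between genotypes in white light were 8 without the filter, 1 with only the 2 groups and 9 without the 2 outlying shade libraries (3 to 14). The 8 in shade were 4 with a filter at 5 TPM, 2 with only the 2 groups and 5 with the pair averaged (5 to 9). The interaction called 0 genes, 2 without the filter, 7 without the 2 outlying shade libraries and 2 without both white-light libraries numbered 2 (0 to 4). The log2 ratio of the 43 genes' summed TPM, shade over white light, was 0.19 in Col-0 (0.11 to 0.35 without each library) and 0.28 in bzip59 (0.22 to 0.39).

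With a replicate block the calls among the 43 genes were 2 in Col-0 and 8 in bzip59, where LHCB3 was added (adjusted p = 0.0495), and over all genes 1944 and 2220. Of 18 same-numbered pairs, 3 had a correlation over 0.1 (-0.15 to 0.25). Differently numbered pairs ran from -0.28 to 0.16. The highest values of all were same-numbered, Col-0 shade 1 with bzip59 white light 1 (0.24) and Col-0 shade 2 with bzip59 white light 2 (0.25). Whether equal numbers share a batch is not given in the labels and cannot be told from these correlations. Directions turned for shares that had not passed: LHCB1.4 (-0.29 points) was -0.666 to 0.0567 without each library, above 0 without Col-0 white light 3 (0.0567) and bzip59 white light 1 (0.0332), and 0.147 without the 2 outlying shade libraries, and PSAH1 and PSAH2 differed by -0.123 and 0.123 points without both white-light libraries numbered 2. The planned searches of promoter motifs and protein identity were not run, since no sequences were held. Precision was limited by 3 libraries per group: the median 95% interval of a change of the 43 genes was ± 0.39 on the log2 scale.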

Other observations

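The second transcript of PSBP1 (AT1G06680.2), an extrinsic protein of the oxygen-evolving complex, stood at 229.5, 298 and 152 TPM in 3 of the 4 libraries numbered 2 and at no more than 33.2 TPM in the other 9 libraries. The gene's sum in those libraries was 2509, 1999.8 and 2789 TPM. The plastid-encoded psbA had its 3 highest levels in Col-0, in white light 2 (119.8 TPM), white light 1 (59.6 TPM) and shade 1 (37.8 TPM). Among the 12 libraries, deviation followed gene length most strongly in bzip59 white light 2 (Spearman rho -0.57 over all tested genes with a length). That library held the lowest level of its group for 26 of the 43 genes, against 56.5% of all tested genes. It held the highest level for 14 of the 43, against 24.9% of all tested genes.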
